A study of Mus musculus with 2 samples.

Results

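Retinoic acid is made from vitamin A and switches genes on through nuclear receptors. The genes described here are 9 that carry its synthesis (Aldh1a1, Aldh1a2, Aldh1a3), breakdown (Cyp26b1), cytoplasmic binding (Crabp1, Crabp2) and nuclear reception (Rara, Rarb, Rarg). They were taken by symbol from a table of 37309 genes, and each symbol matched exactly 1 row. All 9 are protein-coding, and all 9 had reads in both libraries.

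RNA was sequenced from cultured intestinal subepithelial myofibroblasts (ISEMFs), contractile stromal cells that lie beneath the gut epithelium. The supportive ISEMFs came from the small intestine of neonatal C57BL/6 mice, 5 days old by the study's methods, and the non-supportive ISEMFs from that of adult C57BL/6 mice, 2 months old, the names standing for how well each sustains crypt cultures. All mice were wild type, and by the methods both cultures were isolated alike and expanded in the same serum-containing medium with insulin, transferrin and EGF. The deposited names carry a different P number for each culture, which the labels do not explain, and the passage of each culture is not given in the sources used here. Each population is a single library, so no difference below has a replicate check, and age, culture, passage and library cannot be told apart. Levels are RPKM, the reads of a gene scaled to the length of its exons and to the size of the library. Ratios are of supportive over non-supportive ISEMFs unless stated otherwise, and their 95% exact intervals, like those of the levels, cover counting error only.

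The libraries held 50674472 reads on genes (supportive) and 49615497 (non-supportive). All 7 myofibroblast markers examined reached an RPKM of 1 in at least 1 library, and Acta2, the gene of smooth muscle actin, was at 908 in supportive and 1410 in non-supportive ISEMFs. Vim was at 325 and 407. The other 5 were less even, with Des at 0.575 and 3.40, Myh11 at 26.3 and 108, Tagln at 206 and 360, Pdgfra at 3.37 and 12.1, and Pdgfrb, the opposite way, at 28.1 and 7.67. Of the markers of other cell types, those of macrophages had the highest summed level. In the non-supportive library all 9 of these were higher by 2-fold or more and their RPKM summed to 124, against 6.95 in the supportive library, where Ptprc, Tyrobp, Adgre1 and C1qa (4 of the 9) had 0 reads. Lyz2 led them at 72.7 against 6.31, followed by Tyrobp at 29.97 against 0.

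In the textbook scheme, retinol is oxidized reversibly to retinal by retinol and alcohol dehydrogenases, and retinal is oxidized irreversibly to retinoic acid by the ALDH1A enzymes. CRABP proteins carry retinoic acid in the cytoplasm, CYP26 enzymes hydroxylate and clear it, and retinoic acid receptors (RARs) bind it in the nucleus as partners of retinoid X receptors (RXRs). In the gut, vitamin A from the diet is taken up by enterocytes, and retinoic acid from mucosal dendritic cells and stroma is known for giving lymphocytes their gut-homing receptors.

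RAR and RXR pairs bind response elements made of direct repeats of a short half-site, the best known having a spacer of 5 bases. Promoters from RefSeq (build GRCm38.p6, from 250 bases before to 50 bases after a start) were searched on both strands for repeats of AGGTCA or AGTTCA or GGGTCA or GGTTCA, in any pairing, with that spacer. Promoters were listed for 7 of the 9 genes (12 promoters), and the 2 without an entry were Aldh1a3 and Crabp2. Among these 7, Rarb alone held a match, as did 32 of all 32851 promoters (0.0974%). Spacers of 1 and of 2 bases gave a match in 0.222% and 0.268% of all promoters and in 0 of these 12. The sequence of Rarb, the receptor gene long known as a target of retinoic acid, is shown because it carries a match. So is that of Cyp26a1, the breakdown enzyme best known as such a target. Cyp26b1 is shown as the gene of the 9 with the largest difference between the libraries. Each is the 120 bases just before the RefSeq start, 5′ to 3′ on the gene's strand, and the capitals mark the repeat. All were found once on their chromosome in the mm9 genome used for these data, at chr14:17407991-17408110 on the minus strand for Rarb, at chr19:37772178-37772297 on the plus strand for Cyp26a1 and at chr6:84543805-84543924 on the minus strand for Cyp26b1.
Rarb: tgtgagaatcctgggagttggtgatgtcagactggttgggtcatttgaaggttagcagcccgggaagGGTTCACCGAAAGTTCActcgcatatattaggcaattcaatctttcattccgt
Cyp26a1: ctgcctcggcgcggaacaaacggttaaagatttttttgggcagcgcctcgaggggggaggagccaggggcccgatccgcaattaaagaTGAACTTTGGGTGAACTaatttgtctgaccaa
Cyp26b1: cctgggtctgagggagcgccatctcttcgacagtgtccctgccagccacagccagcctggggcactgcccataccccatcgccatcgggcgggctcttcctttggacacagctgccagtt

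In Rarb the repeat ran from 53 to 37 bases before the start, and that start lay 4 bases from the start of transcript Rarb-202 in the mm9 annotation. In Cyp26a1 it lay on the opposite strand, from 32 to 16 bases before the start. Cyp26b1 had 0 half-sites of these spellings in its 300-base window. A match is a description of letters, and the absence of one says nothing of a response element elsewhere.

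Of the 9 genes, 5 reached an RPKM of 1 in at least 1 library (Aldh1a1, Aldh1a3, Cyp26b1, Crabp1 and Rara). With 0.1 added to each RPKM before the log2 ratio, 4 of these 5 were past 2-fold, where 18.2% of the 9110 protein-coding genes at that level were. Cyp26b1, Aldh1a1 and Crabp1 were higher in supportive ISEMFs (9.25% of all such genes) and Aldh1a3 was lower (8.98%). Of the 4, Cyp26b1, Crabp1 and Aldh1a3 reached an RPKM of 1 only in the library where they were higher. For these, the value that passed the minimum also enters the ratio, so the count of 4 is a description only. Over all 9 genes without a minimum level, 6 were past 2-fold, 3 in each direction, against 11.8% of the 22379 protein-coding genes listed. That share is not a like background, since the list includes genes without a read in either library, which cannot pass, while all 9 had reads in both. The genes that were lower in supportive ISEMFs were Aldh1a2, Aldh1a3 and Rarb.

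**Figure D1:**
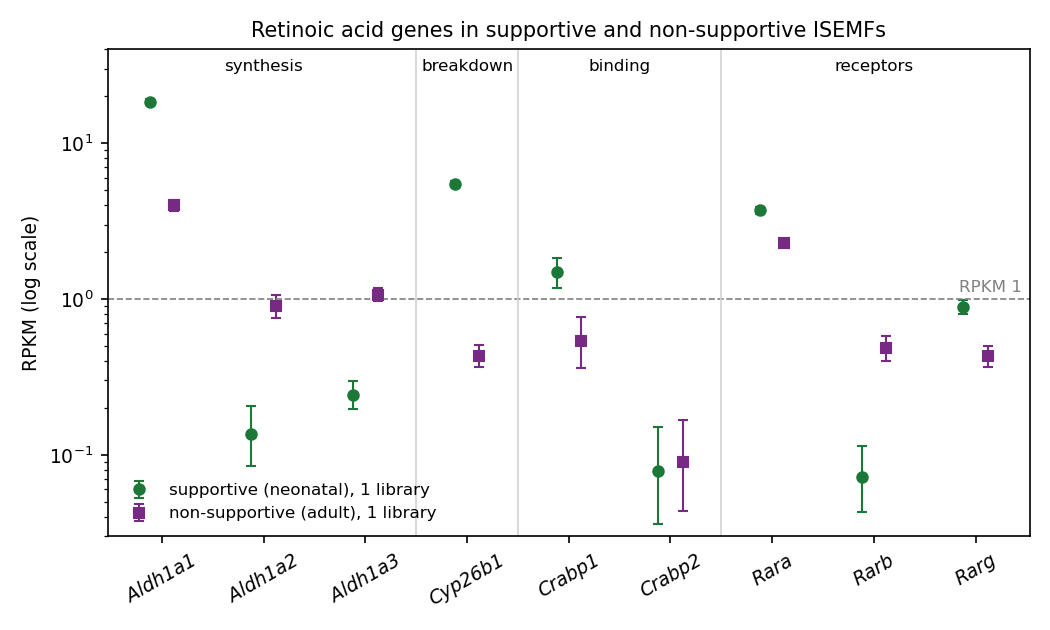
RPKM (log axis) of the 9 genes in the supportive (circles) and non-supportive (squares) library, 1 library each, with 95% exact Poisson intervals from the reads and a dashed line at an RPKM of 1. Aldh1a1, Cyp26b1, Crabp1, Rara and Rarg lie higher in the supportive library, Aldh1a2, Aldh1a3 and Rarb lie lower, and the intervals of Crabp2 overlap.

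The synthesis enzymes split by paralog. Aldh1a1 (chr19:20676451-20717952, plus strand of mm9) encodes a cytosolic retinal dehydrogenase that is also a stem cell marker in several tissues. Its reads numbered 2694 in supportive and 568 in non-supportive ISEMFs, for RPKM values of 18.4 and 3.98. The RPKM was 4.61-fold higher in the supportive library (95% exact interval, 4.21 to 5.05), a log2 ratio of 2.18. Aldh1a1 ranked 1252 of the 22379 protein-coding genes by RPKM in supportive ISEMFs and 4811 in non-supportive ISEMFs, and was the most abundant of the 9 genes in both.

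The reads of Aldh1a1 need 1 qualification. Its neighbour Aldh1a7 is a close copy, and 7.53% of the 50-base runs of the Aldh1a1 transcript also occur exactly in that of Aldh1a7, while 30.9% occur there or in Aldh1a2 or Aldh1a3 with up to 2 mismatches, the number the alignment allowed. Aldh1a7 itself had 112 reads in supportive ISEMFs against 26. It was 4.19-fold higher in supportive ISEMFs (2.71 to 6.69), and its RPKM was under 1 in both. With the reads of both genes added together the ratio was 4.59 (4.2 to 5.02), so the split of reads between the copies moved the ratio of Aldh1a1 by less than its counting interval. Of the other 8 genes, 7 shared 0 such runs with another protein-coding gene, and Rara shared 0.201% of its runs.

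Aldh1a2 and Aldh1a3 ran the other way. Aldh1a2 (chr9:71063596-71144050, plus strand) encodes the main retinal dehydrogenase of the early embryo and is a marker of mesothelium and of gut dendritic cells. Supportive ISEMFs gave 22 reads, or an RPKM of 0.136, and non-supportive ISEMFs gave 142, or 0.903. Aldh1a2 was thus 6.64-fold lower in the supportive library (4.22 to 10.9), at a level under an RPKM of 1 in both.

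Aldh1a3 (chr7:73535778-73572403, minus strand) encodes the third enzyme of the family. The supportive library held 95 of its reads and the non-supportive library 405, for RPKM values of 0.244 and 1.07. It was lower in supportive ISEMFs by 4.39-fold (3.5 to 5.54).

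The family as a whole was more abundant in supportive ISEMFs and less mixed. Its summed RPKM was 18.7 against 5.96, a ratio of 3.15. Aldh1a1 made up 98.0% of that sum in supportive and 66.9% in non-supportive ISEMFs. Aldh1a2 made up 0.726% and 15.2%, and Aldh1a3 1.30% and 17.9%. Ratios between paralogs within 1 library do not depend on library size. Aldh1a1 stood 75.4-fold above Aldh1a3 in supportive ISEMFs (61.4 to 93.5) and 3.73-fold in non-supportive ISEMFs (3.28 to 4.25), and the intervals do not overlap. Between Aldh1a3 and Aldh1a2 the ratio was 1.79 (1.12 to 2.99) and 1.18 (0.975 to 1.44), with overlapping intervals.

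**Figure D2:**
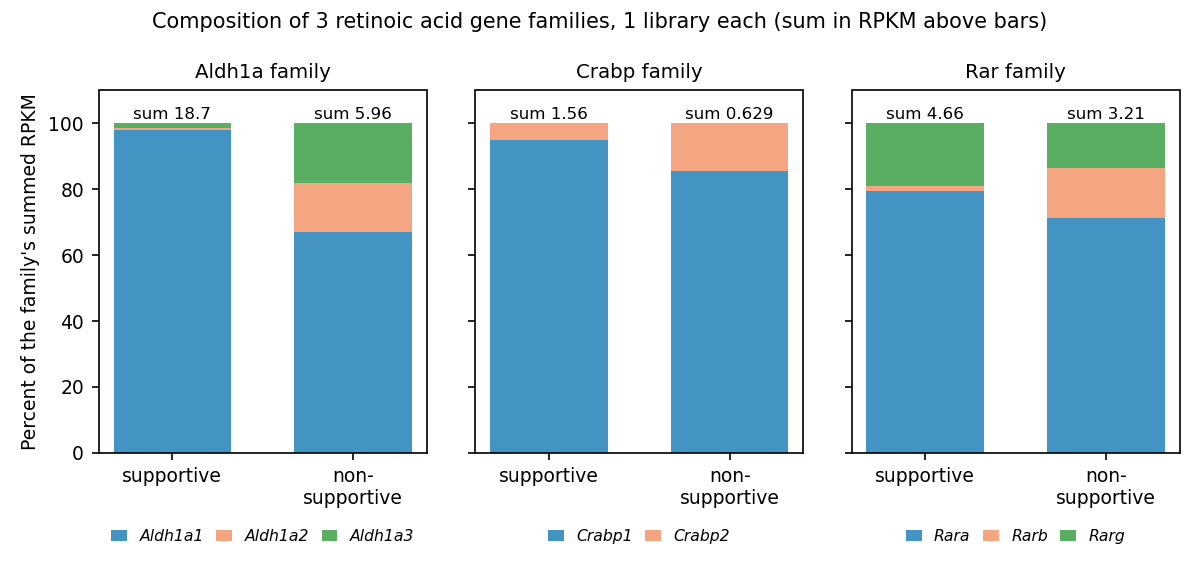
Share of each paralog in the summed RPKM of its family (percent, stacked bars from 0) in the supportive and the non-supportive library, 1 library each, with the sum in RPKM above each bar. Aldh1a1 fills 98.0% of the Aldh1a bar in supportive and 66.9% in non-supportive ISEMFs, and Rarb takes 1.55% and 15.2% of the Rar bar.

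The genes that were lower in supportive ISEMFs were higher in the library with the macrophage transcripts, and in bulk RNA fewer cells of a type and less RNA per cell cannot be told apart. The part of macrophages in Aldh1a2, Aldh1a3 and Rarb was not tested. Of 8 dendritic cell markers, H2-Aa, Flt3 and Ccr7 had 0 reads in both libraries. Itgax had 7 reads in the non-supportive and 0 in the supportive library, Itgae 21 and 22, and Xcr1 10 and 10. The summed RPKM of the 8 was 0.733 in the non-supportive and 2.57 in the supportive library, nearly all of it Zbtb46 (0.615 and 2.41). The part of dendritic cells was not tested. Cd74, the next highest of the 8, was at 0.0681 in the supportive library, with 0 reads in the other. The 5 mesothelial markers summed to 0.65 in the non-supportive and 0.133 in the supportive library, led by Krt19 at 0.607 and 0.00635, with Upk3b at 0 and 0.13. The 8 epithelial markers summed to 3.49 and 0.530, of which Krt20 was 3.13 and 0.0799 and Cdh1 was 0.0497 and 0.427. Endothelial markers (4 genes) summed to 0.209 and 0.131, with Kdr at 0.162 and 0.00359 and Tek at 0.00402 and 0.127. The 5 markers of neurons and glia moved with the genes that were higher in supportive ISEMFs, at 0.195 in the non-supportive and 6.75 in the supportive library. Of that, S100b was 0.116 and 6.69 while Sox10, a defining glial gene, had 0 reads in both. The part of glial cells was not tested.

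Cyp26b1 differed more than any of the other 8 genes. It encodes a cytochrome P450 of the endoplasmic reticulum that hydroxylates retinoic acid, and it lies at chr6:84521938-84543740 on the minus strand. With 1957 reads its RPKM reached 5.48 in supportive ISEMFs, while 150 reads gave 0.432 in non-supportive ISEMFs. This was 12.7-fold higher (10.7 to 15.1), a log2 ratio of 3.39, and only 2.52% of expressed protein-coding genes had a larger log2 difference in either direction. Its rank by RPKM was 3906 in supportive and 10099 in non-supportive ISEMFs. The other CYP26 enzymes were not detectable at this depth, with 0 reads of Cyp26a1 in both libraries and 1 read of Cyp26c1 in the supportive library.

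The most abundant synthesis gene and the breakdown gene were both higher in the supportive library, by unequal factors. Aldh1a1 was 3.35-fold above Cyp26b1 in supportive ISEMFs (3.16 to 3.55) and 9.21-fold above it in non-supportive ISEMFs (7.68 to 11.1).

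**Figure D3:**
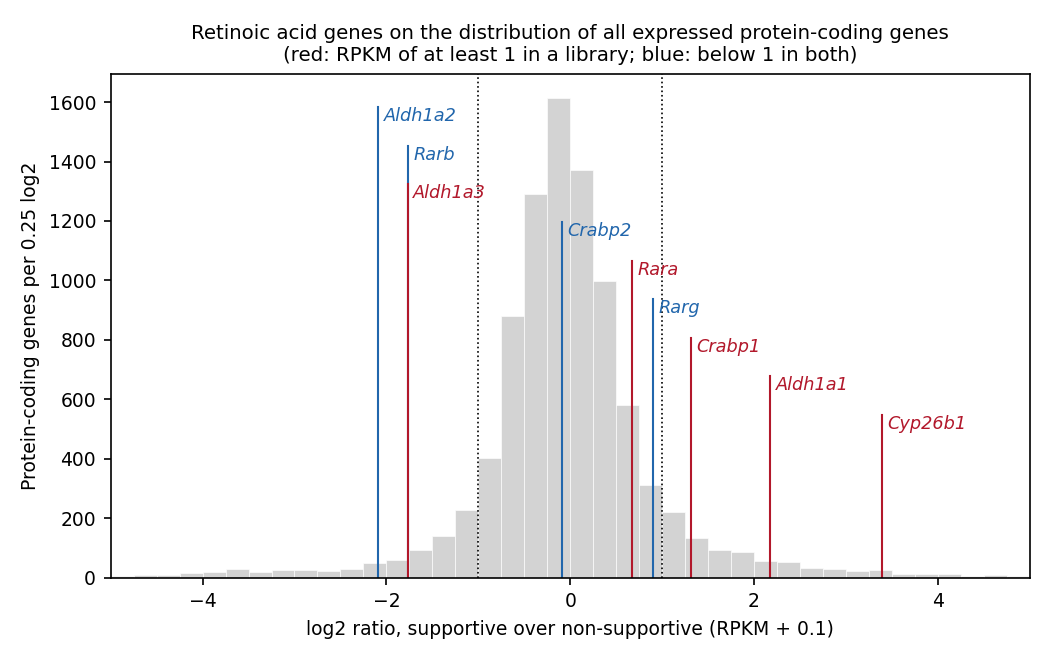
Number of expressed protein-coding genes (grey bars, 0.25 wide) by log2 ratio of supportive over non-supportive RPKM with 0.1 added, from 1 library each, shown from -5 to 5, with the 9 genes as vertical lines whose height has no meaning and dotted lines at 2-fold. Cyp26b1 at 3.39 and Aldh1a1 at 2.18 lie in the upper tail, Aldh1a2 at -2.09 and the nearly coincident Rarb and Aldh1a3 at -1.77 lie in the lower tail, and Crabp2 at -0.09 lies near the centre.

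Of the carriers, Crabp1 was higher in supportive ISEMFs and Crabp2 gave no detectable difference. Crabp1 (chr9:54612555-54620917, plus strand) encodes the cytoplasmic protein held to sequester retinoic acid. The 85 reads in supportive ISEMFs gave an RPKM of 1.48 and the 30 in non-supportive ISEMFs gave 0.539, which is 2.75-fold higher, with an interval from 1.80 to 4.33 that reaches below 2. Crabp2 (chr3:87752588-87757298, plus strand) encodes the carrier known for delivering retinoic acid to RARs in the nucleus. With 9 and 10 reads its RPKM was 0.0793 and 0.0906, and the ratio of 0.875 had an interval from 0.314 to 2.40, so any difference from 3.18-fold lower to 2.40-fold higher could not be seen at this depth. Crabp1 made up 94.9% and 85.6% of the summed RPKM of both carriers.

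The receptors were less far apart than the enzymes, except Rarb. Rara (chr11:98789132-98836256, plus strand), the most widely expressed RAR, had 1758 reads and an RPKM of 3.70 in supportive ISEMFs, and 1058 reads and 2.29 in non-supportive ISEMFs. That is 1.61-fold higher (1.5 to 1.74) and short of 2-fold. Its log2 ratio of 0.67 was exceeded in size by 30.2% of expressed protein-coding genes.

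Rarg (chr15:102065369-102087948, minus strand), the RAR known from skin and cartilage, had 350 reads and an RPKM of 0.886 in supportive ISEMFs, and 165 reads and 0.430 in non-supportive ISEMFs. The RPKM was 2.06-fold higher (1.71 to 2.5). With 0.1 added the log2 ratio was 0.90, below the 2-fold line, and without that addition it is above it.

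Rarb (chr14:17263356-17651381, minus strand), for which a promoter with the repeat is printed above, was the receptor that was lower in supportive ISEMFs. The start of that promoter lies inside the gene, which has 3 annotated transcripts. Reads counted per gene do not show which start was used. In supportive ISEMFs 18 reads gave an RPKM of 0.0722, while 118 reads gave 0.487 in non-supportive ISEMFs. The level was thus 6.75-fold lower in supportive ISEMFs (4.09 to 11.8). In neither library did its RPKM reach 1.

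Summed over the receptors, RPKM was 4.66 in supportive and 3.21 in non-supportive ISEMFs, a ratio of 1.45. Rara made up 79.4% and 71.4% of the sum, Rarg 19% and 13.4%, and Rarb 1.55% and 15.2%. The minor receptors were apart in 1 library only. Rarg stood 12.3-fold above Rarb in supportive ISEMFs (7.65 to 21.0), while in non-supportive ISEMFs their ratio was 0.883 with an interval from 0.693 to 1.13, so neither was detectably above the other.

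Across all 9 genes the levels spanned 254-fold in the supportive library and 44.0-fold in the non-supportive library. The orders that follow hold for the exon lengths behind the deposited RPKM. In supportive ISEMFs the order from the top was Aldh1a1, Cyp26b1, Rara, Crabp1, Rarg, Aldh1a3 and Aldh1a2. Each was above the next beyond counting error, since the interval of their ratio lay above 1. Crabp2 and Rarb followed, and neither Aldh1a2 and Crabp2 nor Crabp2 and Rarb differed beyond counting error. In non-supportive ISEMFs, Aldh1a1 stood above Rara and Rara above Aldh1a3 and Aldh1a2, which did not differ beyond counting error. Aldh1a2 was 1.68-fold above Crabp1 (1.12 to 2.58). Crabp1, Rarb, Cyp26b1 and Rarg did not differ beyond counting error between neighbours, and Crabp2 came last, 4.74-fold below Rarg (2.52 to 10.1). Cyp26b1 was thus at place 2 in supportive ISEMFs and at place 7 in non-supportive ISEMFs, there without a resolved order against its neighbours Rarb and Rarg. Its level interval there (0.366 to 0.508) also overlapped that of Crabp1 (0.363 to 0.769).

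The rest of the retinoid pathway was given by a list of 59 further genes in 8 roles, of which 49 had a read and 21 reached an RPKM of 1 in a library. Of these 21, 3 were at least 2-fold higher and 1 lower in supportive ISEMFs, and 17 were within 2-fold. Their median log2 ratio was 0.02 and the median size 0.26, where all expressed protein-coding genes had -0.07 and 0.41. The share past 2-fold, 4 of 21, is near the 18.2% of all expressed protein-coding genes.

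Of the genes for retinol uptake and storage, Rbp2, Rbp7, Ttr and Lrat, the last being the enzyme that esterifies retinol, had 0 reads in both libraries. Scarb1, a receptor that takes up carotenoids and lipoprotein lipid, was the highest of the 4 genes for carotene cleavage, at 0.543 and 0.796.

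Genes for the step from retinol to retinal differed little where expressed. Of 17 oxidoreductases, 6 reached an RPKM of 1, 0 of these were past 2-fold, and their median log2 ratio was -0.10. Adh5, a ubiquitous alcohol dehydrogenase, was the highest at 14.1 in supportive and 18.6 in non-supportive ISEMFs. Rdh10, the retinol dehydrogenase that the embryo requires for retinoic acid, was named here after its values were seen and was at 3.08 and 3.40, a ratio of 0.906 (0.838 to 0.981).

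Among the nuclear partners, Rxra was the highest, at 2.19 in supportive and 2.0 in non-supportive ISEMFs (ratio 1.10, 1.01 to 1.19). The coregulators that RARs recruit were all expressed, 11 of 11, and the 3 past 2-fold were all higher in supportive ISEMFs, where 9.25% of expressed protein-coding genes were past 2-fold and higher. Kat2b, a histone acetyltransferase, was at 2.57 and 0.841, or 3.06-fold higher (2.70 to 3.47). Tbl1xr1, a subunit of the NCoR corepressor complex, was at 15.9 and 6.45, 2.47-fold higher (2.37 to 2.57). Ncoa1, a coactivator of nuclear receptors, was at 5.39 and 2.49, 2.17-fold higher (2.03 to 2.32). These genes serve many other transcription factors besides RARs.

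**Figure D4:**
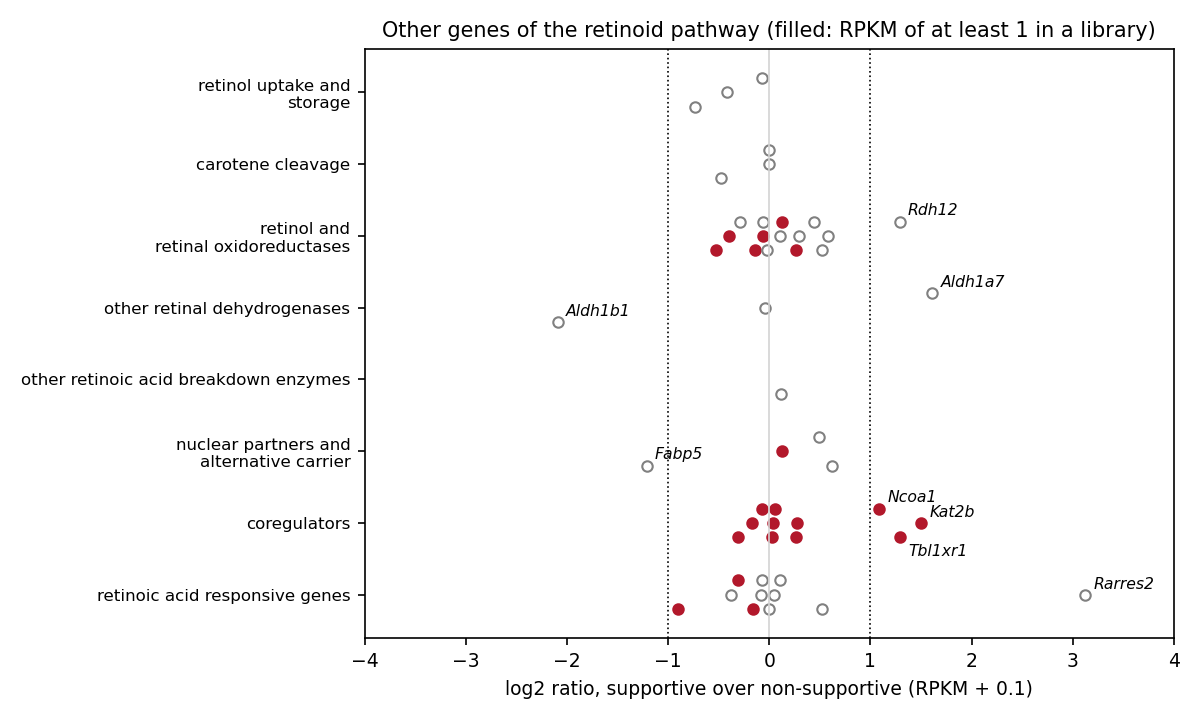
Log2 ratio of supportive over non-supportive RPKM with 0.1 added, from 1 library each, for the further retinoid pathway genes with a read, by role and apart from 1 gene not reported here, with filled points for an RPKM of at least 1 in a library, dotted lines at 2-fold and genes in 2 roles drawn in both. The filled points past 2-fold are Ncoa1, Tbl1xr1 and Kat2b, all on the right.

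A list of 18 genes known to respond to retinoic acid includes Rarb, Cyp26b1 and Crabp2, described above, and 15 others. Of those 15, 4 reached an RPKM of 1, with a median log2 ratio of -0.61. Of these 4, 3 were within 2-fold, among them Tgm2, the tissue transglutaminase, which was the highest at 9.88 and 11.1. Rarb and Cyp26b1, both in this list, differed in opposite directions. Rarres2, the gene of chemerin, named after its values were seen, had 48 reads and an RPKM of 0.949 in supportive ISEMFs against 1 read, a ratio of 46.6 with a counting interval from 7.98 to 1880.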

How the data were processed

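RNA from 1 library of supportive and 1 library of non-supportive ISEMFs was analysed. Per the paper's methods and the submitters' processing notes, the authors aligned single-end reads to mm9 with TopHat2 2.0.4 and Ensembl junctions, kept unique hits with up to 2 mismatches, and counted reads with HTSeq 0.5.4p3. The strand setting is not given in the sources used here. In GENCODE vM1, 0 of the 9 genes shared exon bases with another annotated gene. The exon length counted by the authors was larger than in GENCODE vM1 for Aldh1a3, Cyp26b1, Crabp2, Rara, Rarb and Rarg (Rara, 6647 against 4573 bases). Overlap in those further bases could not be seen. The authors deposited read counts per gene and RPKM, which they computed with the union of a gene's exons and a library size that was 71463423 and 69449374 reads when worked back. The authors' log2 ratio and DESeq p-values were not used, nor was their shorter table of Wnt pathway genes.

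The genes and lists were chosen with earlier results of these data known. Named were all 9 genes, list genes past 2-fold at an RPKM of at least 1, the highest of each role and the 2 highest of each marker list, while other genes, among them those named for having 0 reads and the rest of the myofibroblast markers, were named after their values were seen, and 2 genes that this rule names are not reported here. Log2 ratios used RPKM + 0.1. Ratio intervals (95%) were Clopper-Pearson, from each gene's split of reads, and level intervals from the exact Poisson interval. With 1 library per population no count model was fitted, and edgeR 4.0.16 and DESeq2 1.42.0 gave scaling factors only. Coordinates are of GENCODE vM1 on mm9. Interval steps were tested on simulated data. Scripts ran in R 4.3.3 and Python 3.11.15 with matplotlib 3.10.9, scipy 1.17.1, pandas 2.3.3 and numpy 2.4.6.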

Additional observations from a re-analysis of the deposited data

How the results depend on the processing

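The count of the 9 genes past 2-fold at an RPKM of at least 1, which was 4, fell to 2 with a pseudocount of 1 and with a 4-fold threshold, and to 2 of 2 genes with a minimum RPKM of 5. Without a minimum it was 6 of 9. TMM factors (0.984 and 1.02), median-of-ratios size factors, a median log2 ratio set to 0 and a pseudocount of 0.001 left it at 4. The 4 further pathway genes past 2-fold became 2 with a pseudocount of 1 and with a minimum RPKM of 5, 1 at 4-fold and 9 of 59 without a minimum. A pseudocount of 1 brought Aldh1a3 to -0.73 and Crabp1 to 0.69, and these 2 left the count. It also brought Aldh1a2 to -0.74 and Rarb to -0.47, which were under an RPKM of 1 in both libraries and outside that count. Counted in reads rather than per length, Aldh1a1 made up 95.8% and 50.9% of its family and Rara 82.7% and 78.9% of the receptors in supportive and non-supportive ISEMFs, Aldh1a3 came to 3.38% and 36.3%, Crabp2 to 9.57% and 25.0%, and Rarb came to 0.847% and 8.8%. With exon lengths of GENCODE vM1, an alternative chosen after seeing the data, Rara was 75.3% of the receptors in non-supportive ISEMFs, and Rarb, at 11.7%, came below Rarg, at 13.1%. The order of all 9 genes was not redone with these lengths, which are shorter for Rarg (4109 against 5527 bases) and Aldh1a3 (4615 against 5459), among others. Depth limits Crabp2, Rarb and Aldh1a2 most, with 9, 18 and 22 reads in the supportive library. No replicate could be left out, since each population has 1 library.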
